A study of Mus musculus with 62 samples.

Results

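Thymosins and the actin-binding genes that act beside them were described in 2 brain regions, the PFC (prefrontal cortex) and the NAc (nucleus accumbens), of male wild-type C57BL/6j mice of 15 weeks. The 10 genes listed were chosen by symbol: the thymosins Tmsb4x and Tmsb10, the profilins Pfn1 and Pfn2, the cofilin family Cfl1, Cfl2 and Dstn, the cytoplasmic actins Actb and Actg1, and gelsolin, Gsn. Of these, 9 are among the 11121 genes counted, and Actg1 was not analysed here. Tmsb4x was listed because its PFC values after stress were known, so the PFC contrast of stressed against unstressed mice is given for all members as a description, without a test. The libraries are 15 PFC CTR, 15 PFC mCRS, 16 NAc CTR and 16 NAc mCRS libraries, where CTR are unstressed mice and mCRS are mice exposed to multimodal chronic restraint stress. All groups carry the same genotype, and the labels name no agent. Per the study's methods both regions were dissected from the same animals, so the contrasts of the regions compare tissues of mice that are largely shared. The labels do not tie PFC to NAc libraries by mouse, and each library was therefore treated as a sample of its own.

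Actin is present in cells as free monomers and as filaments that grow at one end and are taken apart at the other. Thymosin beta peptides bind monomers and hold them back from filaments, while profilins load monomers with ATP and hand them to growing ends. Cofilin, its relative destrin and gelsolin cut or unwind filaments and return monomers to the pool. In neurons this turnover shapes dendritic spines and growth cones, and in microglia it drives the movement of processes. Tmsb4x, which encodes thymosin beta 4, is abundant in brain tissue and is expressed in microglia as well as in neurons.

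The coding sequences of Tmsb4x and Tmsb10 are shown because the 2 genes encode small peptides of the same kind and a count for one must be told from a count for the other. They were read from the GENCODE transcripts of GRCm38, 5′ to 3′, without the stop codon, and capitals mark bases that differ between them.
Tmsb4x: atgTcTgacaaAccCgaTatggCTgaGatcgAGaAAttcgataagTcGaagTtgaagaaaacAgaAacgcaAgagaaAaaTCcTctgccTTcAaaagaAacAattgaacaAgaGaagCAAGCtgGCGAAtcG
Tmsb10: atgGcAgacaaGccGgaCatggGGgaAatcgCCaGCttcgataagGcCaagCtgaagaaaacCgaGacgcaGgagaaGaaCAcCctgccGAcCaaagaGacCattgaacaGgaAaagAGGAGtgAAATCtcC
Each sequence has 132 bases or 44 codons in 2 coding exons on the minus strand, chrX:167207937-167208036 and chrX:167207504-167207535 for Tmsb4x, and chr6:72957913-72958012 and chr6:72957621-72957652 for Tmsb10. The sequences share 92 of 132 bases, 69.7%, and 17 of 44 codons, and the longest stretch without a difference has 10 bases. Any 70 bases of one, the length of a read, thus hold differences from the other.

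BRB-seq primes on the poly(A) tail with oligo-dT primers and does not count molecules by identifiers, so the counts gather towards the 3′ end and read copies made by PCR are not separate molecules. All 70-base windows of the longest coding transcript of each member were compared, on both strands, with the transcripts of every other gene. No window of Tmsb4x, Pfn1, Pfn2, Dstn or Gsn recurred in another gene. For Tmsb10, 50.3% of the windows that start in the last 500 bases recurred in the predicted genes Gm9844 or Gm3788, and its counts are uncertain to that extent. For Cfl1 this share was 66.1%, and most of its recurring windows lay in Snx32, a gene that overlaps it on the opposite strand. Whether the authors counted by strand is not given in the sources used here, so Cfl1 and Snx32 cannot be told apart there. In the last 500 bases of Actb the share was 0.232%, and in those of Cfl2 it was 0.

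Library totals ranged from 945286 to 4857359 counts. The 9 members took between 0.583% and 0.993% of all counts of a library. The share of the 11121 genes with at least 1 count was 87.1% ± 4.42 in CTR and 82.3% ± 6.23 in mCRS libraries of the PFC (SD, n = 15 each), and 90.2% ± 7.14 in CTR and 88.5% ± 7.43 in mCRS libraries of the NAc (n = 16 each). The share of counts on genes of mitochondrial DNA (mtDNA) was 12.9% ± 2.99 and 16% ± 3.63 in these groups of the PFC, and 10.3% ± 1.31 and 10.6% ± 1.61 in those of the NAc. The regions carried their defining markers: all 9 markers of striatal projection neurons were lower in the PFC in both treatments at an FDR below 0.05, and 5 of the 7 listed markers of cortical excitatory neurons were higher. The library NAc CTR 7 stood apart, with 511 CPM (counts scaled to a common library total, the usual CPM scale) summed over the striatal markers, where the NAc CTR median was 4970 CPM. Over the cortical excitatory markers no NAc CTR library exceeded 1410 CPM, and no PFC CTR library fell below 3940 CPM. NAc mCRS 10 stood apart too, with 23900 CPM of choroid plexus markers. Results of the NAc are given with both libraries, and values without them stand beside the results that rest on them.

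Tmsb4x (ENSMUSG00000049775, GRCm38 chromosome X, 167207093 to 167209315, minus strand), the monomer-holding thymosin, is given first. It was listed for its PFC values, so its order of groups is a description and no ranking among the members is read from it. Its CPM was lowest at 1940, had a median of 2500 and was highest at 4030 in PFC CTR libraries. In PFC mCRS libraries these values were 2120, 4150 and 5820 CPM. In the NAc they were 1330, 1730 and 2200 CPM in CTR and 1340, 1810 and 2730 CPM in mCRS libraries. The PFC stood above the NAc in both treatments, PFC mCRS stood highest, and the 2 groups of the NAc covered nearly the same range, as the plot of member levels by library shows.

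**Figure D1:**
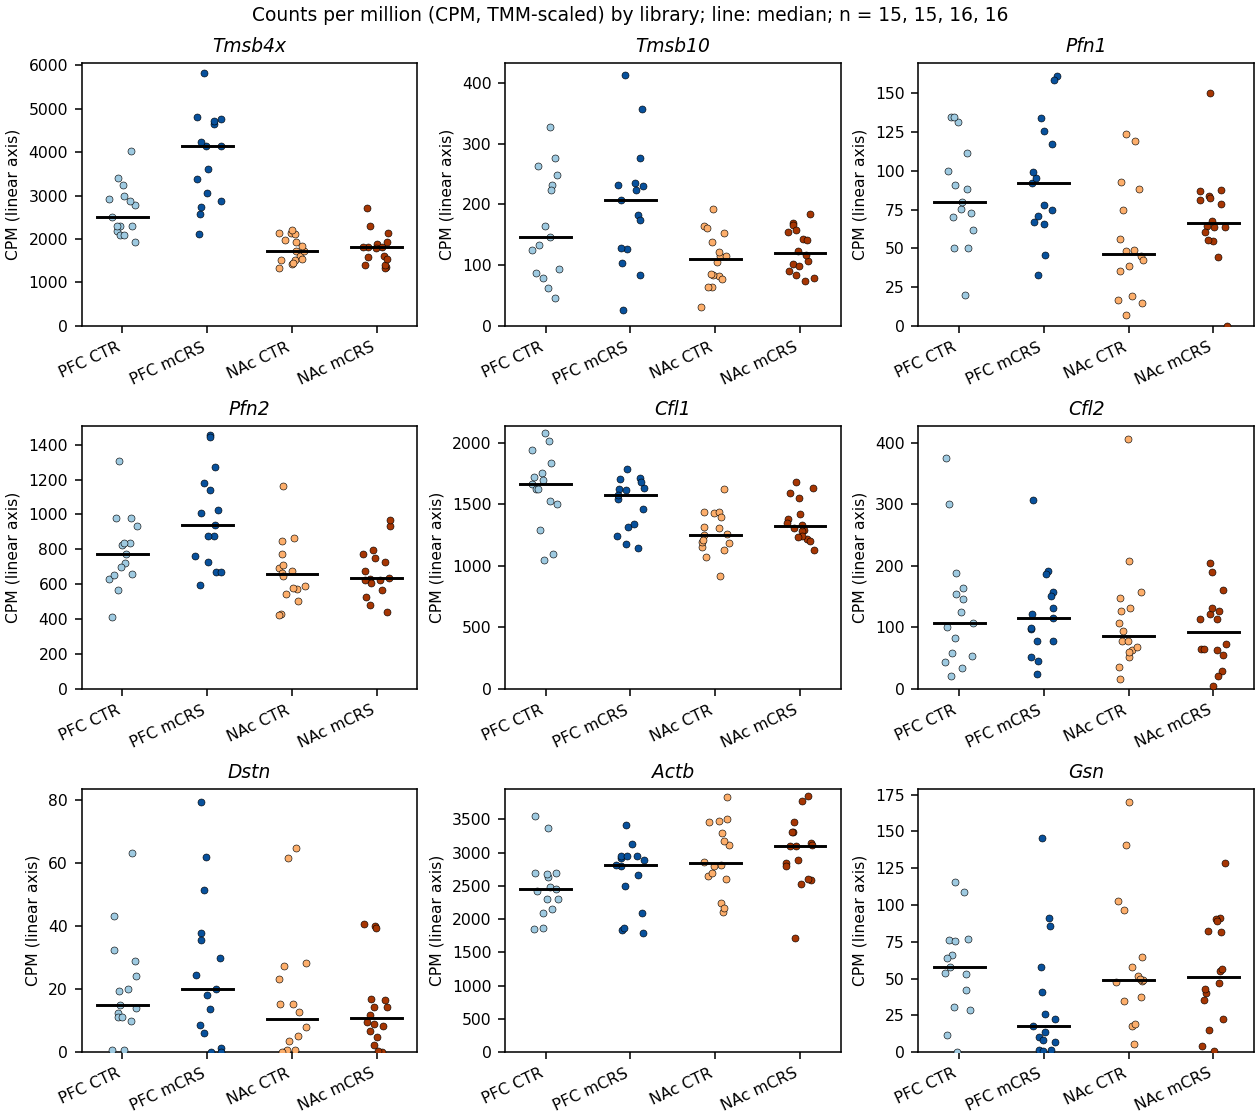
CPM (TMM-scaled, linear axis from 0) of the 9 counted members in each library, by group (15, 15, 16 and 16 libraries); points are libraries and lines are group medians. In Tmsb4x the medians are 2500, 4150, 1730 and 1810 CPM, and in Actb the NAc medians, 2840 and 3100 CPM, lie above the PFC CTR median of 2460 CPM.

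In the PFC, 14 of 15 mCRS libraries lay above the CTR median of Tmsb4x and 8 lay above the highest CTR library, while 1 lay below the CTR median. The fitted log2 fold change of mCRS against CTR was 0.55 (standard error 0.12, n = 15 each), a 1.47-fold higher level. Leaving out 1 library at a time gave log2 fold changes from 0.48 to 0.60. The labels number the libraries of each group, and among numbers 1 to 8 and among numbers 9 and above the difference in mean log2 CPM was 0.51 each time. These are the libraries through which Tmsb4x was chosen, so neither the split nor the libraries left out repeat the result independently. In the PFC, 0% of 8916 genes tested had an FDR below 0.05 with edgeR (0 genes, with 312 or 3.5% at an unadjusted p below 0.05, and 5 genes at an FDR below 0.05 with DESeq2), and no reading is made of the members against that share because the contrast served to choose them.

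In the NAc, Tmsb4x showed no difference that its error could resolve. The log2 fold change of mCRS against CTR was 0.02 (standard error 0.10, n = 16 each, FDR = 1.0 with edgeR's quasi-likelihood test), with a 95% interval from -0.17 to 0.20. Of 16 mCRS libraries, 9 lay above the CTR median and 7 below. Without NAc CTR 7 and NAc mCRS 10, the value was again 0.02. The numbering splits this contrast: the difference in mean log2 CPM was 0.15 among numbers 1 to 8 and -0.14 among numbers 9 and above, and NAc CTR libraries themselves averaged 10.58 ± 0.13 and 10.95 ± 0.17 log2 CPM in these parts (SD, n = 8 each). The effect of mCRS in the PFC minus that in the NAc was 0.53 on the log2 scale (standard error 0.15), given as a description because it holds the PFC values.

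Between the regions, Tmsb4x was 1.51-fold higher in the PFC of CTR mice, or 0.60 ± 0.10 as a log2 fold change with its standard error (FDR = 2.49e-05, edgeR). The PFC CTR libraries also belong to the contrast through which Tmsb4x was chosen. Its FDR here thus describes the fit, and no call is read from it. All 15 PFC CTR libraries lay above the NAc CTR median and 11 lay above the highest NAc CTR library. Without NAc CTR 7 the log2 fold change was 0.57 (FDR = 3.45e-05 in the same test), and over all single libraries left out it stayed between 0.54 and 0.63. In mCRS mice the log2 fold change of PFC against NAc was 1.12 (standard error 0.12), or 2.18-fold, with 13 of 15 PFC libraries above the highest NAc library. With the mtDNA share as a covariate it was 0.64. This contrast uses the PFC mCRS libraries that served to choose the members, so no call is read from it for any member, and the FDR values given for members there describe the fit.

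Several measures of the libraries moved with Tmsb4x in the PFC. Its log2 CPM went up with the mtDNA share within PFC CTR libraries (Pearson's r = 0.80, Spearman's rho = 0.78, n = 15, permutation test, adjusted p = 0.0021 and 0.009). The same held within PFC mCRS libraries (r = 0.82, rho = 0.72, n = 15, adjusted p = 0.0021 and 0.0221 by permutation), and r was 0.79 and 0.72 without the 2 libraries farthest from the median of Tmsb4x. Within the NAc these correlations were r = -0.53 in CTR (rho = -0.42, n = 16, permutation test, adjusted p = 0.064 and 0.136), -0.74 without the 2 farthest libraries, and r = 0.22 in mCRS libraries (rho = 0.09, n = 16, adjusted p = 0.505 and 0.73 by permutation). The relation seen in both PFC groups thus had the opposite sign in NAc CTR libraries, where it did not pass the adjustment over 12 relations.

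The share of genes with a count ran against Tmsb4x in the PFC, with r = -0.63 in CTR (rho = -0.63, n = 15, permutation test, adjusted p = 0.0311 and 0.039) and r = -0.61 in mCRS libraries (rho = -0.59, n = 15, permutation test, adjusted p = 0.0312 and 0.0458). Without the 2 farthest libraries r was -0.43 in each of these PFC groups, so the relation rests in part on them. In NAc CTR libraries it ran the other way (r = 0.59, rho = 0.62, n = 16, permutation test, adjusted p = 0.0311 and 0.039), and in NAc mCRS libraries r was 0.12 (rho = 0.23, adjusted p = 0.665 and 0.434, n = 16, permutation test). With that share in the fit as a covariate, the PFC log2 fold change of Tmsb4x was 0.32 (standard error 0.11), and with the mtDNA share as a covariate, an alternative chosen after seeing the data, it was 0.25 (standard error 0.09). In CTR mice, Tmsb4x was higher in the PFC by 0.60 on the log2 scale (FDR = 9.49e-05, edgeR) with the first covariate and 0.42 (FDR = 0.00995) with the second. The third measure, the log2 library total, gave r = -0.50 in CTR and -0.53 in mCRS libraries of the PFC (permutation test, adjusted p = 0.0791 and 0.0643). In the NAc it gave r = 0.63 in CTR and 0.18 in mCRS libraries (permutation test, adjusted p = 0.0311 and 0.552). With it as a covariate, the PFC log2 fold change of Tmsb4x was 0.40 (standard error 0.115). The part that these measures have in the PFC difference was not tested further.

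**Figure D2:**
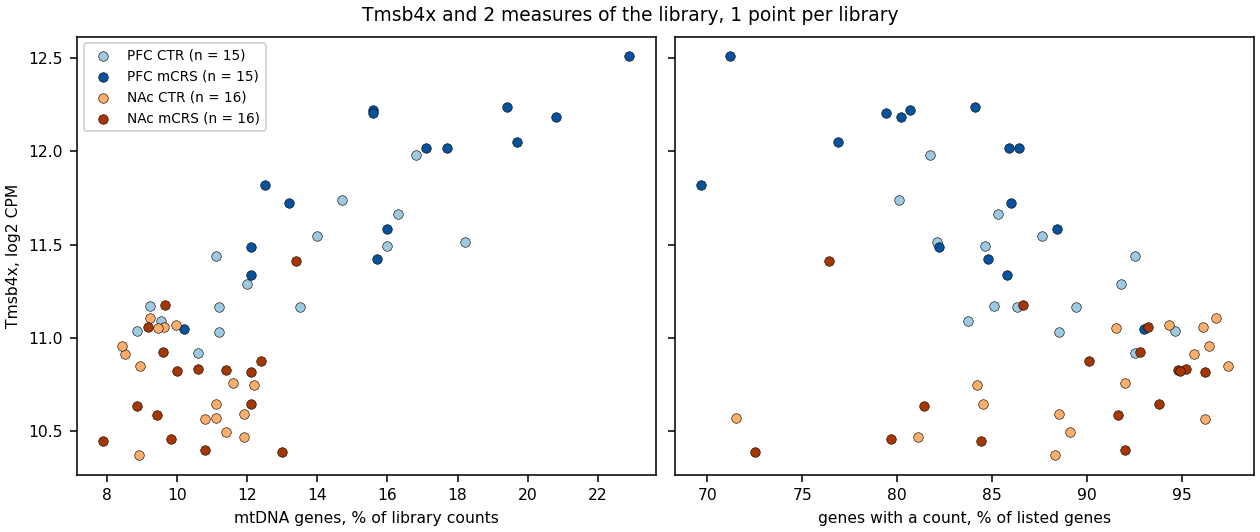
Tmsb4x in log2 CPM against the share of counts on mtDNA genes (left, percent) and the share of 11121 genes with a count (right, percent), with 1 point per library and colours for the 4 groups. In the PFC the points climb with the mtDNA share (r = 0.80 in CTR and 0.82 in mCRS libraries), whereas those of NAc CTR mice do not (r = -0.53).

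Genes with short transcripts leaned the same way in PFC mCRS libraries. The longest coding transcript of Tmsb4x has 864 bases, that of Pfn1 861 and that of Tmsb10 690. Of 427 genes tested in the PFC with at most 1000 bases, 72.8% lay above 0, with a median log2 fold change of 0.205, against a median of -0.0435 over 5126 genes of more than 3000 bases. In the NAc the median of the short genes was 0.0805. Between the regions in CTR mice it was 0.205, and in mCRS mice 0.257. These medians describe these libraries, and the part of transcript length in the Tmsb4x difference was not tested.

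Tmsb10 (ENSMUSG00000079523, chromosome 6, 72957347 to 72958748, minus strand), the related thymosin known from developing neurons, had fewer counts and a wider spread. Its CPM was 46.6 at the lowest, 146 at the median and 328 at the highest in PFC CTR, and 25.8, 207 and 413 in PFC mCRS libraries. In the NAc the values were 30.6, 109 and 192 CPM in CTR and 74.6, 120 and 184 CPM in mCRS libraries. The PFC medians were the higher ones, and the groups overlapped in every comparison.

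The log2 fold change of Tmsb10 with mCRS was 0.29 in the PFC (standard error 0.28, a description), from 0.17 to 0.39 with 1 library left out and 0.01 with the mtDNA share as a covariate. It was 0.18 in the NAc (standard error 0.23, FDR = 1.0, edgeR). PFC against NAc, it was 0.60 in CTR mice (standard error 0.26, FDR = 0.199) and 0.70 in mCRS mice (standard error 0.25, FDR = 0.0882), neither past an FDR of 0.05 in edgeR's test, and the mCRS value was 0.19 with the mtDNA share as a covariate. In CTR mice the estimate of Tmsb10 was nearly the same as that of Tmsb4x, with standard errors of 0.26 and 0.10. The numbering splits it: the difference in mean log2 CPM of Tmsb10 was 0.88 among numbers 1 to 8 and 0.13 among numbers 9 and above. For Tmsb4x these differences were 0.64 and 0.55.

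Profilins differed in spread as well. Pfn2 (ENSMUSG00000027805, chromosome 3, 57841895 to 57848079, minus strand), the profilin of neurons, reached 412, 773 and 1310 CPM at the lowest, median and highest PFC CTR library and 598, 941 and 1450 CPM in PFC mCRS libraries. In the NAc these values were 426, 656 and 1160 CPM in CTR and 439, 633 and 970 CPM in mCRS libraries. In mCRS mice, 14 of 15 PFC libraries lay above the NAc median and 7 above the highest NAc library.

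The level of Pfn2 in the PFC of mCRS mice was 1.46-fold that in the NAc, or 0.55 ± 0.14 as a log2 fold change with its standard error (FDR = 0.00512, edgeR), a description for the reason given for Tmsb4x. Without NAc mCRS 10 the value was 0.57, and with the mtDNA share as a covariate it was 0.25 (FDR = 0.90 in the same fit). In CTR mice it was 0.23 (standard error 0.14, FDR = 0.483), which does not show that the regions were alike. The log2 fold change with mCRS was 0.34 in the PFC (standard error 0.15, a description), or 0.20 with the mtDNA share as a covariate, and 0.01 in the NAc (standard error 0.13, FDR = 1.0, edgeR).

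Pfn1 (ENSMUSG00000018293, chromosome 11, 70651850 to 70654644, minus strand), the profilin of most cell types, ranged from 20.3 to 135 CPM in PFC CTR (median 80.2) and from 32.9 to 161 CPM in PFC mCRS libraries (median 92.2). In the NAc it ranged from 7.3 to 124 CPM in CTR (median 46.7) and from 0 to 151 CPM in mCRS libraries (median 66.3), with 1 library, NAc mCRS 9, at 0 counts. The PFC was above the NAc at the median in each treatment. The log2 fold changes between the regions, 0.63 in CTR (standard error 0.35, FDR = 0.419) and 0.44 in mCRS mice (standard error 0.36, FDR = 0.692, both edgeR), did not exceed their errors enough to pass, and those with mCRS were 0.19 in the PFC (standard error 0.31) and 0.37 in the NAc (standard error 0.39, FDR = 1.0).

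Cofilins, which cut filaments, were led by Cfl1 (ENSMUSG00000056201, chromosome 19, 5490455 to 5495201, plus strand). Its CPM was 1050, 1660 and 2070 at the lowest, median and highest in PFC CTR and 1150, 1580 and 1790 in PFC mCRS libraries. In the NAc it was 914, 1250 and 1620 CPM in CTR and 1130, 1320 and 1680 CPM in mCRS libraries. In CTR mice 13 of 15 PFC libraries lay above the NAc median and 10 above the highest NAc library.

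In CTR mice, Cfl1 was higher in the PFC than in the NAc, 1.28-fold, or 0.35 ± 0.10 as a log2 fold change with its standard error (FDR = 0.0192, edgeR). The call did not hold in every setting: the FDR was 0.064 with RLE normalization, 0.0717 with upper-quartile normalization, 0.0652 with the replicate number as a block and 0.0915 with the mtDNA share as a covariate, with log2 fold changes from 0.30 to 0.34. In mCRS mice the value was 0.15 (standard error 0.10, FDR = 0.555). With mCRS it was -0.09 in the PFC (standard error 0.11, a description) and 0.10 in the NAc (standard error 0.09, FDR = 1.0, edgeR).

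Cfl2 (ENSMUSG00000062929, chromosome 12, 54858809 to 54862877, minus strand), known as the cofilin of muscle, had medians of 108 and 115 CPM in PFC CTR and mCRS and of 86.1 and 93 CPM in NAc CTR and mCRS libraries. Single libraries ran from 4.54 CPM in NAc mCRS 3 to 406 CPM in NAc CTR 7, the library low in striatal markers. Dstn (ENSMUSG00000015932, chromosome 2, 143915320 to 143943324, plus strand), which encodes destrin, had medians of 14.9 and 19.9 CPM in PFC CTR and mCRS and of 10.4 and 10.7 CPM in NAc CTR and mCRS libraries. Its counts ran from 0 to 169 per library and 5 libraries had none, 2 of NAc CTR, 2 of PFC mCRS and 1 of NAc mCRS mice.

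Neither gene passed the test in any contrast that was tested. For Cfl2 the log2 fold changes, with standard errors between 0.336 and 0.345, were -0.06 with mCRS in the PFC, -0.25 in the NAc, 0.19 for PFC against NAc in CTR and 0.37 in mCRS mice. The Cfl2 value of the NAc was 0.10 without NAc CTR 7 and NAc mCRS 10, that of the regions in CTR mice 0.46 without NAc CTR 7, and that of the PFC turned to 0.10 with the replicate block, so no direction is read from them. For Dstn the standard errors lay between 0.757 and 0.788, and the values were 0.36 with mCRS in the PFC, -0.18 in the NAc, 0.29 for PFC against NAc in CTR and 0.83 in mCRS mice. The first 3 of these turned in sign under alternatives, to -0.21 with the detected share in the fit, 0.19 with the replicate block and -0.04 with the mtDNA share (1.02 with the replicate block), and the last fell to 0.05 with the mtDNA share. No direction of Dstn was resolved.

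Actb (ENSMUSG00000029580, chromosome 5, 142903115 to 142906754, minus strand), the cytoplasmic beta actin and source of the monomers that the other members bind, was ordered the other way. Its CPM was 1860, 2460 and 3560 at the lowest, median and highest in PFC CTR and 1790, 2820 and 3420 in PFC mCRS libraries. In the NAc it was 2110, 2840 and 3830 CPM in CTR and 1720, 3100 and 3850 CPM in mCRS libraries. In each treatment 2 of 15 PFC libraries lay above the NAc median and 13 below it.

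The log2 fold change of Actb for PFC against NAc was -0.23 in CTR mice (standard error 0.10, FDR = 0.18, edgeR) and -0.18 in mCRS mice (standard error 0.10, FDR = 0.44), and neither passed. With DESeq2's Wald test the CTR value was -0.27 and its FDR 0.0295. With mCRS the value was 0.10 in the PFC (standard error 0.11, a description) and 0.04 in the NAc (standard error 0.09, FDR = 1.0, edgeR), where the 95% interval ran from -0.13 to 0.21.

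Gsn (ENSMUSG00000026879, chromosome 2, 35256380 to 35307892, plus strand), the calcium-dependent severing protein gelsolin, which is abundant in oligodendrocytes, spread over most of its range in each group. In the PFC it had 0, 57.7 and 116 CPM at the lowest, median and highest in CTR libraries and 0.678, 17.6 and 146 CPM in mCRS libraries. In the NAc the values were 5.6, 49.2 and 170 CPM in CTR and 0.936, 51 and 129 CPM in mCRS libraries. The PFC mCRS median was the lowest of the 4, with 11 of 15 libraries below the CTR median.

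The log2 fold change of Gsn with mCRS was -0.68 in the PFC with a standard error of 0.60, a description, and ran from -1.36 with the replicate block to -0.42 with 1 surrogate variable (-1.05 to -0.56 with 1 library left out). In the NAc it was -0.17 (standard error 0.42, FDR = 1.0, edgeR). PFC against NAc, it was -0.12 in CTR (standard error 0.43, FDR = 0.967) and -0.63 in mCRS mice (standard error 0.58, FDR = 0.742), and the groups overlapped throughout. The mCRS value was -1.35 with the replicate block and turned to 0.23 with the mtDNA share as a covariate.

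Set side by side, the members did not share one direction. With mCRS in the NAc, 0 of 9 members had an FDR below 0.05 with edgeR, where 0.00986% of 10141 genes did, 0 of 9 had an unadjusted p below 0.05, where 2.04% of genes did, and DESeq2 called 0 of 9. Between the regions in CTR mice 2 of 9 had an FDR below 0.05, Tmsb4x, from which no call is read, and Cfl1. Both were higher in the PFC, and of 9932 genes 6.32% passed and 4.23% were higher. In mCRS mice 2 of 9 had an FDR below 0.05, Tmsb4x and Pfn2, from which no call is read, where 6.31% of 9452 genes passed and 4.23% were higher. Of the 9 members 7 were above 0 in each contrast of the regions, where 48.9% of all genes were in CTR and 48.1% in mCRS mice, and the exceptions, Actb and Gsn, were below 0 both times. The 7 include Cfl2 and Dstn, for which no direction is read, and Gsn turned to 0.23 in mCRS mice with the mtDNA share as a covariate. The count in mCRS mice is a description for the reason given for Tmsb4x. The median log2 fold change of the members was 0.286 in CTR and 0.439 in mCRS mice, against -0.0183 and -0.0307 over all genes tested. Both contrasts of the regions share their libraries with the contrasts of stress, and fewer cells of a type cannot be told apart from less RNA per cell in bulk tissue.

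**Figure D3:**
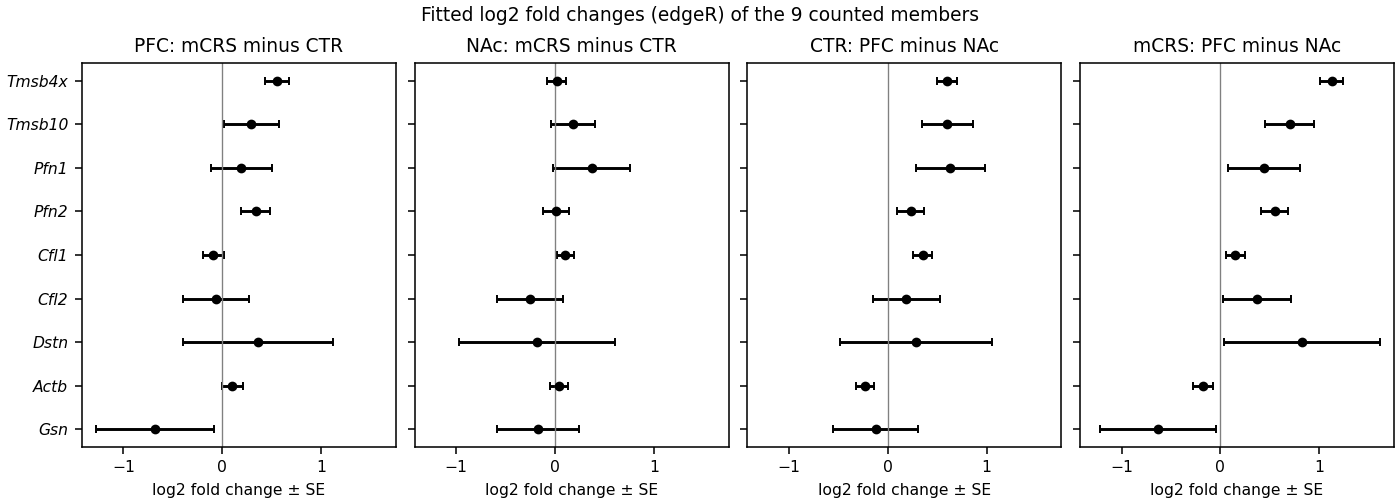
Fitted log2 fold changes (horizontal axis) of the 9 counted members with their standard errors, in 4 contrasts: mCRS against CTR in the PFC and in the NAc, and PFC against NAc in CTR and in mCRS mice. Tmsb4x sits at 0.55, 0.02, 0.60 and 1.12, and Actb lies below 0 in the contrasts of the regions (-0.23 and -0.18).

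Cell type markers differed between the regions beside these genes. Of 10 oligodendrocyte markers 6 were lower in the PFC of CTR mice and 7 in mCRS mice at an FDR below 0.05 (edgeR), and their summed level had ranges of 1890 to 6510 CPM (CTR) and 2830 to 7350 CPM (mCRS) in the PFC against 5600 to 8670 CPM (CTR) and 5550 to 9040 CPM (mCRS) in the NAc. Of 7 general neuron markers 3 were higher in the PFC in each treatment, with summed levels of 6070 to 9170 CPM (CTR) and 5810 to 7560 CPM (mCRS) in the PFC against 3780 to 5880 CPM (CTR) and 3180 to 4990 CPM (mCRS) in the NAc. Over all genes, 2.09% were lower in CTR and 2.07% in mCRS mice, and 4.23% were higher in each. Of 12 microglia markers 0 passed in any of the 4 contrasts (edgeR, with 1 at an unadjusted p below 0.05 in the PFC with mCRS, 0 in the NAc, 2 between the regions in CTR and 1 in mCRS mice). In these contrasts 0%, 0.00986%, 6.32% and 6.31% of all genes passed, and 3.5%, 2.04%, 15% and 14.8% had an unadjusted p below 0.05. The microglia counts thus do not show that the groups were alike. The summed level of the microglia markers ran in the PFC from 304 to 1050 CPM (CTR, median 809) and from 623 to 1080 CPM (mCRS, median 878), and in the NAc from 569 to 1190 CPM (CTR, median 820) and from 608 to 1100 CPM (mCRS, median 765). The median sum of cortical excitatory neuron markers was 5610 CPM in PFC CTR and 4470 CPM in PFC mCRS libraries. None of the microglia, oligodendrocyte or neuron markers had a median of 0 in any group, and the part of cell makeup in the member differences was not tested.

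A ratio of 2 members within a library needs no scaling between libraries, and 4 ratios were compared in 3 contrasts. The log2 ratio of Tmsb4x to Tmsb10 counts was 4.18 ± 0.90 in CTR and 4.45 ± 0.86 in mCRS libraries of the PFC (SD, n = 15 each), and 4.11 ± 0.66 in CTR and 3.87 ± 0.43 in mCRS libraries of the NAc (n = 16 each). Between the regions of CTR mice it differed by 0.07 (standard error 0.29, two-sided permutation test, adjusted p = 0.846), so Tmsb4x and Tmsb10 were not shown to differ unequally there. Among numbers 1 to 8 this difference was -0.24, and among numbers 9 and above it was 0.41. In mCRS mice the ratio was 0.58 higher in the PFC (standard error 0.25, permutation p = 0.0178), which did not pass the adjustment over 12 tests (adjusted p = 0.213). This contrast uses the PFC mCRS libraries that served to choose the members, so no call is read from it for any ratio.

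The log2 ratio of Pfn1 to Pfn2 was 0.63 higher in the PFC than in the NAc of CTR mice (standard error 0.34, permutation p = 0.0803, adjusted p = 0.482) and 0.22 higher in mCRS mice (standard error 0.50, adjusted p = 0.846 by permutation). In the NAc, mCRS and CTR differed by -0.25 in Tmsb4x to Tmsb10, 0.27 in Pfn1 to Pfn2, 0.42 in Cfl1 to Cfl2 and -0.50 in Cfl1 to Dstn, each with an adjusted p of 0.827 or 0.846 by permutation. Without NAc CTR 7 and NAc mCRS 10 the Cfl1 to Cfl2 difference was 0.14, and the Cfl1 to Dstn difference was -1.08 among numbers 1 to 8 and 0.08 among numbers 9 and above. In the PFC the same differences, given without a test, were 0.27, -0.14, -0.16 and 0.13, each smaller than its standard error. Of the 12 tests 0 passed after adjustment. The 1 with an unadjusted p below 0.05, Tmsb4x to Tmsb10 between the regions of mCRS mice, is a description for the reason given above.

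**Figure D4:**
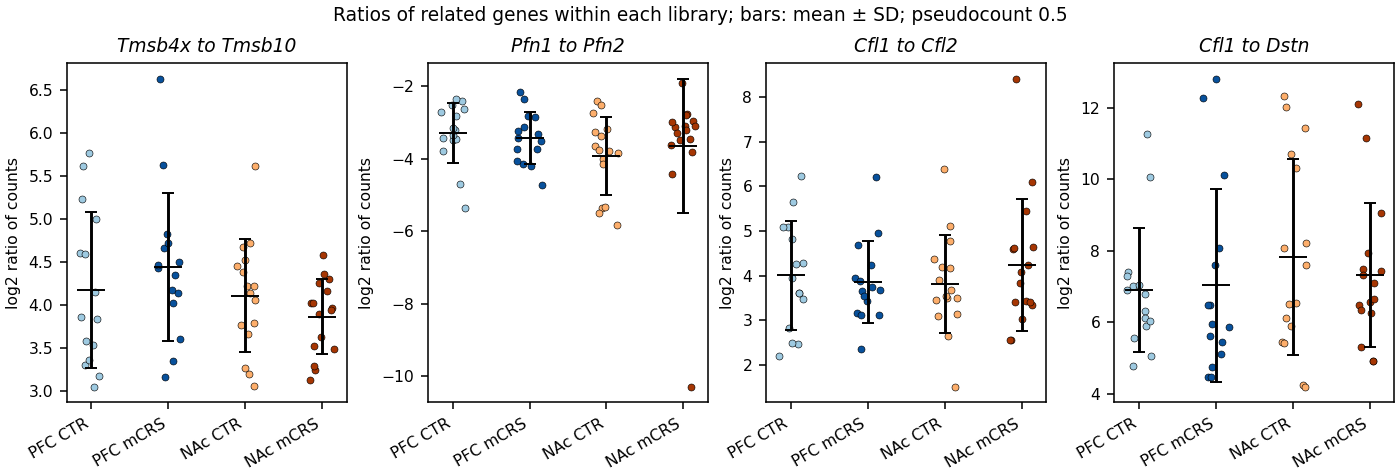
Log2 ratios of the counts of 4 pairs of related members within each library (pseudocount 0.5), by group; points are libraries and bars are the mean ± SD of 15, 15, 16 and 16 libraries. The groups overlap in each pair, and the low point at -10.29 in Pfn1 to Pfn2 is NAc mCRS 9, which held 0 counts of Pfn1.

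Correlations of the other members with Tmsb4x were taken within groups. Of 32 correlations of log2 CPM, 8 members in 4 groups of 15 or 16 libraries, 0 had an adjusted p below 0.05, which does not show that the members varied apart from Tmsb4x. The strongest was Dstn within PFC mCRS libraries (r = 0.69, rho = 0.74, n = 15, permutation test, unadjusted p = 0.00462 and 0.00215, adjusted p = 0.148 and 0.0688), with r = 0.81 without the 2 libraries farthest from the median of Tmsb4x, and it was -0.03 and -0.15 in NAc CTR and mCRS libraries. Actb ran against Tmsb4x within PFC mCRS libraries (r = -0.60, rho = -0.50, n = 15, permutation test, adjusted p = 0.29 and 0.67), with r = -0.67 without the 2 farthest. Tmsb10 gave r = 0.03 (CTR) and 0.48 (mCRS) in the PFC and r = 0.22 (CTR) and 0.30 (mCRS) in the NAc, and no adjusted p was under 0.54 in the permutation tests.

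The 5 genes whose log2 CPM was most like that of Tmsb4x, by the mean of the 4 correlations within groups among 9332 genes with at least 10 counts in 50% of the libraries, were no actin genes. They were Gstm5, a glutathione transferase (mean r = 0.65), Sub1, a transcriptional coactivator (0.65), Rps20, a ribosomal protein (0.64), Timm8b, a mitochondrial import protein (0.63), and Mdh1, the cytosolic malate dehydrogenase (0.61). Rps20 had r = 0.77 (CTR) and 0.87 (mCRS) in the PFC and r = 0.49 (CTR) and 0.44 (mCRS) in the NAc. Among the members Tmsb10 ranked highest, at place 474 with a mean r of 0.26. Values of 1 library share its depth and composition, and these figures are a description.

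Further genes of the actin pathway were taken as a list of 133 symbols in 11 groups, of which 122 were counted. With mCRS in the NAc, 0 of 117 tested had an FDR below 0.05 with edgeR, where 0.00986% of all genes did, and 5 had an unadjusted p below 0.05, where 2.04% of all genes did. The 3 of smallest p were Cdc42, a small GTPase that starts branched filaments through WASP proteins (log2 fold change 0.47, standard error 0.13, FDR = 1.0), and Capza2 and Capzb, subunits of the protein that caps growing ends (0.41, standard error 0.18, and 0.37, standard error 0.17, FDR = 1.0 each). In the PFC, 40 of 110 genes lay above 0 and 70 below, with a median log2 fold change of -0.0728, against 49.3% of all genes above 0.

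Between the regions of CTR mice, 11 of 115 genes were higher and 4 lower in the PFC at an FDR below 0.05 (edgeR), where 4.23% and 2.09% of all genes were. In mCRS mice 9 of 114 were higher and 3 lower, where 4.23% and 2.07% of all genes were. Higher in both treatments were 5 genes: Arpc3, Capza2, Pak1, Pls3 and Rock2. Inf2 and Rnd2 were among those lower in both. In CTR mice 61 of 115 genes lay above 0, with a median log2 fold change of 0.0331, and in mCRS mice 42 of 114, with a median of -0.146, where 48.9% and 48.1% of all genes lay above 0 and the medians over all genes were -0.0183 and -0.0307.

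Pls3, plastin 3, which bundles filaments, was higher in the PFC by 1.53 on the log2 scale in CTR mice (standard error 0.32, FDR = 0.00069) and by 1.93 in mCRS mice (standard error 0.37, FDR = 0.000131, both edgeR). Arpc3, a subunit of the Arp2/3 complex that branches filaments, was higher by 0.96 (standard error 0.20, FDR = 0.000666) and by 0.95 (standard error 0.20, FDR = 0.000766). Pak1, a kinase that acts below Rac and Cdc42, was higher by 0.78 (standard error 0.18, FDR = 0.00234) and 1.04 (standard error 0.18, FDR = 2.87e-05). Capza2 was higher by 0.85 in CTR (FDR = 0.00578) and 0.84 in mCRS mice (FDR = 0.000266), and Cdc42 by 0.61 in CTR (FDR = 0.000995) and 0.19 in mCRS mice (standard error 0.18, FDR = 0.739), with no test of the difference between these.

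Rnd2, an atypical small GTPase, was lower in the PFC, with log2 fold changes of -1.06 in CTR (FDR = 0.000744) and -0.97 in mCRS mice (FDR = 0.0205, both edgeR). The formin Inf2 was lower too, with -1.28 in CTR (FDR = 0.00888) and -1.49 in mCRS mice (FDR = 0.00185 in the same test). With mCRS in the PFC, as a description, Pak1 stood at 0.44 (standard error 0.17), Capza2 at 0.40 (standard error 0.20), Arpc3 at 0.23 (standard error 0.17), Pls3 at -0.16 (standard error 0.27), Cdc42 at 0.06 (standard error 0.17), Rnd2 at 0.27 (standard error 0.33) and Inf2 at -0.32 (standard error 0.46).

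**Figure D5:**
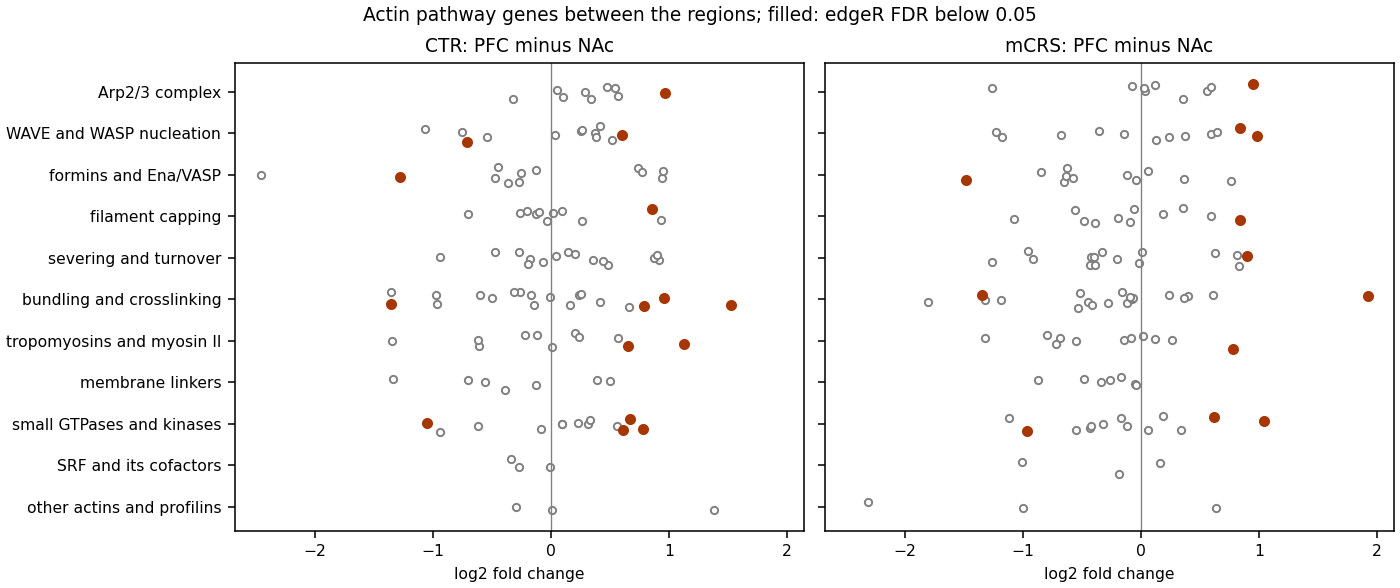
Log2 fold changes (horizontal axis) of PFC against NAc for genes of the actin pathway list in CTR mice (left, 115 genes) and mCRS mice (right, 114 genes), 1 point per gene in 11 groups, filled where the edgeR FDR was below 0.05. In CTR mice 11 filled points lie above 0 and 4 below, and in mCRS mice 9 and 3.

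Promoters of the members, 250 bases before to 50 after each start in RefSeq (GRCm38.p6), were searched on both strands for short motifs, and all 8 counted members with an entry held a GC box, spelled GGGCGG. Of 8795 counted genes 71.1% held one at any start, and of all 32851 promoters 35.7%. The TATA box, spelled TATAAA, was found in 0 of 8 members, in 8.27% of the counted genes at any start and in 13.6% of all promoters. CCAAT was found in Cfl1, Cfl2 and Gsn, in 42.8% of the counted genes and in 37.4% of all promoters. The CArG box, the site of the serum response factor known for actin genes, was in 0 of the 8, none of which is an actin gene. It was in 1.53% of the counted genes and in 1.63% of all promoters. TGTTCT, the half-site of the glucocorticoid receptor, was found in Tmsb4x among the 8, in 14.2% of the counted genes and in 19.0% of all promoters. Actb had no entry, and the promoter of Actg1, whose counts were not analysed here, held a CArG box and each of the other motifs but the TATA box. A match in these letters is a description and not a bound site.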

How the data were processed

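BRB-seq libraries of PFC and NAc were analysed from the deposited counts per gene, whole numbers without normalization. The authors mapped reads with STAR to mm10 (GRCm38) and counted uniquely mapped reads with HTSeq 0.9.1, a version given in the submitters' processing notes. PFC samples of poor quality had been removed by the authors. The mice behind the libraries of a group are not named in the labels used here. Per the study's methods, RNA came from a single hemisphere of each animal, so the libraries of a group stand for separate mice. The p values measure the spread between these libraries. No 2 libraries were identical.

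Counts were fitted across all genes with edgeR 4.0.16 (R 4.3.3) for each contrast alone, with TMM factors, the default filter (minimum count 10), the quasi-likelihood test and Benjamini-Hochberg FDR values. CPM were TMM-scaled over 62 libraries, with a prior count of 2 on the log2 scale. Ratios (pseudocount 0.5) and correlations were tested by two-sided permutation with 100000 resamples. Scripts were tested on simulated data with known changes.

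The members, lists and tests were chosen with earlier results of these data known. Named were all members, the pathway genes of smallest p (up to 3 per direction at an FDR below 0.05 in each region contrast, and 3 in the NAc stress contrast), and the 5 genes most like Tmsb4x. Alternatives were DESeq2 1.42.0, other normalizations and filters, covariates, a replicate block, 1 surrogate variable (sva 3.50.0) and single libraries left out. The ratio of Actb to Actg1 could not be formed, so 12 tests were adjusted in place of those planned. Among the pathway genes that the rule names, 1 is not reported here.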

Additional observations from a re-analysis of the deposited data

How the results depend on the processing

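Between the regions of CTR mice, Tmsb4x kept its direction and an FDR below 0.05 in every alternative run, with no call read. The log2 fold change ran from 0.42 to 0.61, and from 0.54 to 0.63 with 1 library left out. Its description in the PFC ran from 0.25 to 0.57 (0.48 to 0.60 with 1 library left out). The members at an FDR below 0.05 between the regions of CTR mice numbered 2, but 1 with RLE normalization, upper-quartile normalization, the replicate block and the mtDNA share as a covariate, and 3 with DESeq2, where Actb passed as well. In mCRS mice the number was 2, but 1 with the mtDNA share. In the NAc it was 0 throughout, leaving out single libraries (0 to 0) included.

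Genes at an FDR below 0.05 in the PFC numbered 0, but 5 with DESeq2 or all 62 libraries in one fit, and 1 with no filter, the replicate block or the mtDNA share (0 to 2 with 1 library left out). In the NAc there was 1 gene, but 2 with no filter or all 62 libraries, and 0 with DESeq2, the replicate block, the share of genes detected, log2 library size, the mtDNA share, 1 surrogate variable, the numbering as a covariate, or without the 2 libraries that stand apart (0 to 1 with 1 library left out). Between the regions 628 genes in CTR fell to 405 and 596 in mCRS mice to 153 with the mtDNA share, and DESeq2 gave 903 in mCRS mice. The causes were not tested beyond what each setting changes. DESeq2 also moved the share of calls higher in the PFC from 66.9% to 53.3% in CTR and from 67.1% to 50.9% in mCRS mice.

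Deviations of same-numbered libraries correlated at 0.0582 at most, and 1 or 2 libraries per contrast correlated best with their own number. The labels give no pair known to share a mouse for comparison, so this neither shows nor excludes pairing by number. The block changed no member call other than that of Cfl1. Counts of Dstn ran from 0 to 169 per library, and how much of its standard error, 0.757 to 0.788, came from depth and how much from the spread between libraries was not tested.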
